A study of Schizosaccharomyces pombe with 32 samples.

Results

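The genes described here are 37 genes of DNA repair and of the DNA damage checkpoint in the fission yeast Schizosaccharomyces pombe. They were chosen by name: a probe set was taken when its gene symbol began with rad, rhp, msh, mlh, apn or uve followed only by digits, which gave 37 of the 4972 probe sets on each array. By the known roles of their products they fell into 14 genes of excision repair, 7 of homologous recombination, 3 of mismatch repair, 8 of the checkpoint and 5 of post-replication repair, the SUMO pathway or cohesion. The rule reads symbols and uses no signal. RNA came from strain JB50, a homothallic (h90) strain with no other allele named, which can switch mating type and mate with itself, grown in YES broth, a rich medium, in shake-flask batch cultures. In the peroxide series 2 cultures were sampled at 0 min, before hydrogen peroxide, then at 5, 10, 15 and 30 min and later at 50, 60, 90, 120, 180 and 240 min of 0.5 mM hydrogen peroxide (22 arrays). In the untreated series 2 cultures that received none were sampled at 0, 60, 120, 180 and 240 min (10 arrays), so every group of 1 series and 1 time held 2 arrays. The growth notes describe peroxide cultures begun at unequal densities, and which of them supplied either arrayed culture is not stated.

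Cells repair DNA by several routes. Excision repair cuts out damaged bases or short damaged strands, base excision acting on oxidised bases and nucleotide excision on bulky or ultraviolet lesions. Recombination copies the sister or homologous strand to mend breaks, mismatch repair removes copying errors, and post-replication repair lets replication pass a lesion. The checkpoint kinase Rad3 and its clamp and clamp loader sense damaged or stalled DNA and hold back mitosis. Hydrogen peroxide oxidises DNA, and fission yeast also answers it through the Sty1 kinase and the factor Pap1, which raise antioxidant transcripts.

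Each value below is the signal of 1 probe set as deposited, a linear brightness with no stated unit, so levels of different genes are not compared. The median signal per array lay between 1.52 and 2.0 and differed by culture, from 1.52 to 1.63 in peroxide culture 2 and from 1.95 to 2.0 in untreated culture 1. Of the 37 genes, 16 lay among the 25% of probe sets with the lowest mean log2 signal, and the lowest signal of a member was 0.043. A change is a log2 difference between group means with its standard error (SE). It was tested with limma on all 4972 probe sets, and a gene is called where the Benjamini-Hochberg adjusted p was under 0.05. Changes given for a single culture compare 1 array with the 0 min array of that culture, so they are untested. The 30 min array of peroxide culture 2 stood apart: its best correlation with another array was 0.909, where each other array reached at least 0.973. As a check of the treatment, the catalase transcript ctt1 stood 3.05 and 2.57 above 0 min at 5 min on the log2 scale, and srx1, which encodes sulfiredoxin, stood 3.11 and 2.94 above. Neither passed the test at 5 or at 60 min. At 60 min their changes were 3.35 and 3.33 (adjusted p = 0.0882 and 0.106 in limma). Of 6 measured genes of the peroxide response 0 passed at 5 min and 2 at 60 min. Those 2 were hsp16 and tms1 (adjusted p = 0.0318 and 0.0363 in limma). The test thus called some large changes and missed others, so a gene that was not called is not thereby shown to be unmoved.

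At 60 min of peroxide the median change of the 37 genes was 0.03, against -0.11 for all probe sets, and the genes ran from -0.81 (rad1) to 1.17 (rhp14). In limma's test 0 of 37 genes passed at any of the 10 peroxide times. Of all probe sets 0% passed at 5, 10 and 15 min and 1.07%, 0.302% and 0.543% passed at 30, 50 and 60 min. The shares at 90, 120, 180 and 240 min were 0.322%, 0.161%, 0.0402% and 0.0201%. A count of 0 among 37 is therefore near the background at each time. At an unadjusted p under 0.05 there were 0 genes at each of 5, 10 and 15 min, then 4, 6 and 7 at 30, 50 and 60 min, and 3, 3, 2 and 3 at 90 to 240 min. The 7 at 60 min are 18.9% of the members, and 18.9% of all probe sets were below that p too. At 5, 10, 15, 30 and 50 min 0.422%, 1.33%, 3%, 14.4% and 19.1% of all probe sets were. The shares at 90, 120, 180 and 240 min were 12.9%, 9.11%, 5.11% and 3.84% at that p. An F-test over the 10 times also called 0 of 37, against 0.483% of all probe sets. At an unadjusted p under 0.05 it had 1 gene (rad2), 2.7% of the members where 9.19% of all probe sets were. A fit of the peroxide arrays to 60 min alone called 1, 2 and 1 of 37 at 30, 50 and 60 min, where 2.7%, 10.3% and 9.27% of all probe sets passed. With all 4 arrays at 0 min as the reference 1 and 2 passed at 30 and 50 min, where 5.37% and 4.06% of all probe sets did. In RNA from whole cultures, fewer cells with a transcript and less transcript per cell cannot be told apart.

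**Figure D1:**
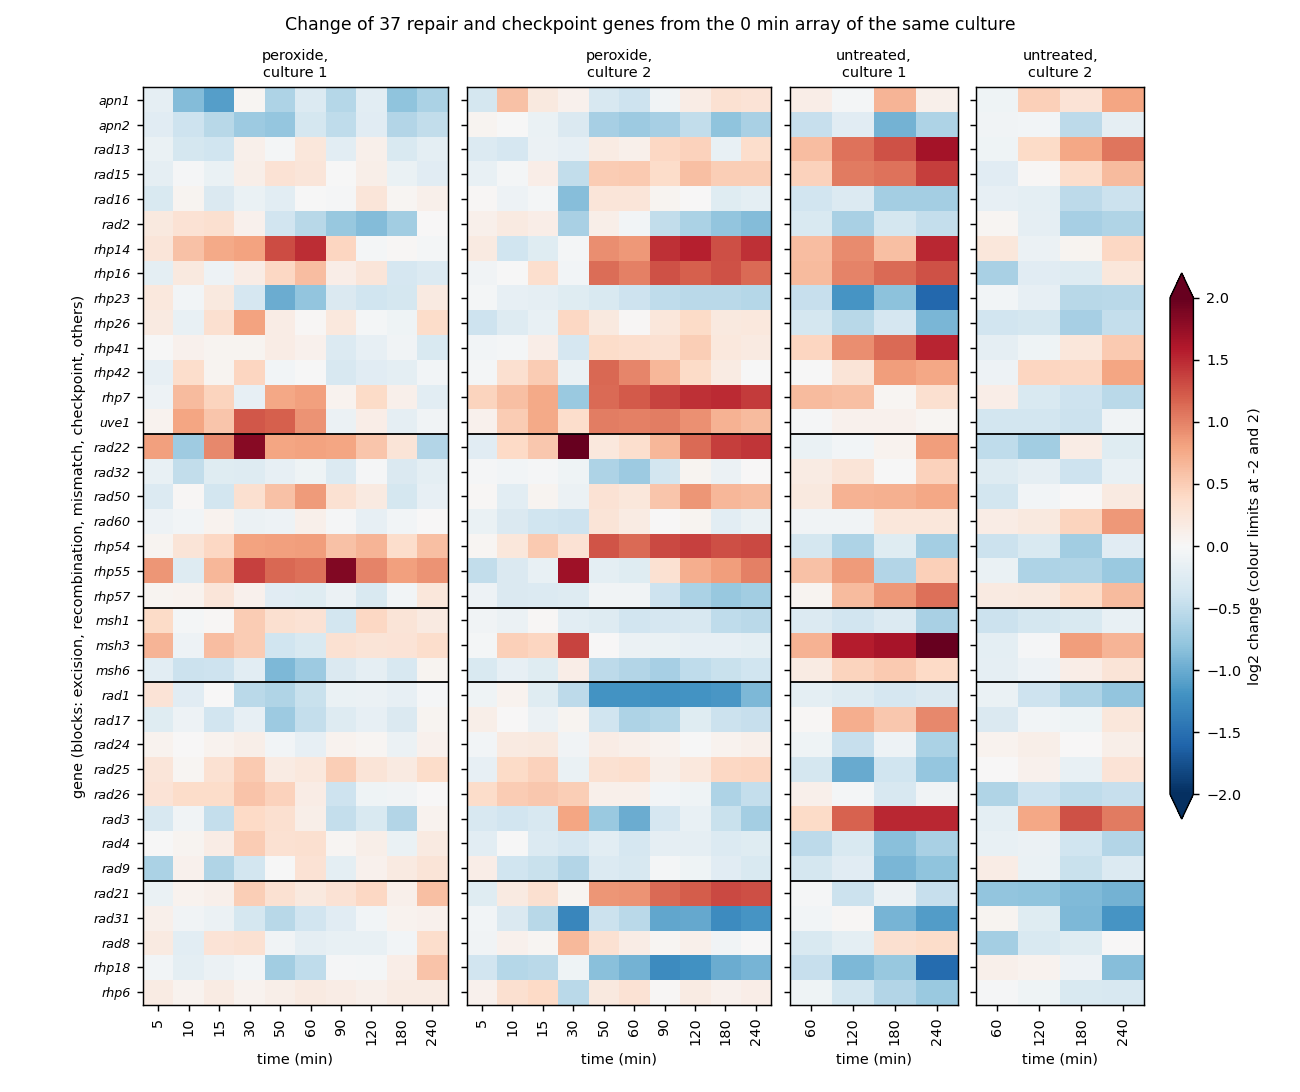
Each row is 1 of the 37 genes and each column 1 array. Colour gives the log2 change from the 0 min array of the same culture, over time in min, for both peroxide and both untreated cultures, and black lines part the classes. In peroxide culture 2 rhp14, rhp7, rhp16, rhp54 and rad21 stay high to 240 min, and in the untreated cultures rad3, rad13 and msh3 are high from 120 or 180 min.

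By class, the median change at 60 min of peroxide was 0.43 for the recombination genes (5 of 7 genes above 0) and 0.18 for excision repair (10 of 14 above 0). The checkpoint genes had a median of -0.02 (2 of 8 above 0), the post-replication, SUMO and cohesin genes -0.01 (2 of 5) and the mismatch repair genes -0.21 (0 of 3). The recombination median was 0.80 in culture 1 and 0.17 in culture 2, and the excision median 0.05 and 0.28, so the order of these classes turned between the cultures. At least 1.5-fold higher in both cultures stood 5 genes: rhp14, rhp16, rhp7 and uve1 of excision repair and rhp54 of recombination. That is 5 of 37 where 11.1% of all probe sets met the same rule. Only msh6 was at least 1.5-fold lower in both, where 13.3% of all probe sets were.

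**Figure D2:**
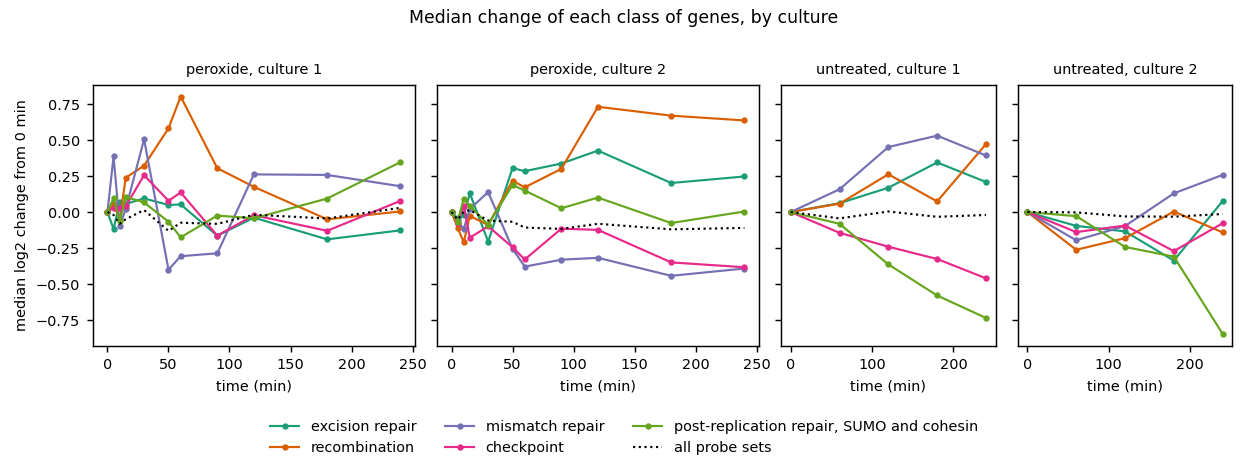
Lines give the median log2 change of each class of genes from the 0 min array of the same culture, against time in min, in each of the 4 cultures. The dotted line is the median of all 4972 probe sets. At 60 min of peroxide the recombination median was 0.80 in culture 1 and 0.17 in culture 2.

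Among the excision repair genes, rhp14, the homologue of human XPA that recognises damage in nucleotide excision, had the largest change at 50 and 60 min. In culture 1 its signal was 1.15 at 0 min, 1.36, 1.73, 1.95 and 2.02 at 5, 10, 15 and 30 min, 2.85 and 3.21 at 50 and 60 min, then 1.55, 1.12, 1.17 and 1.12 at 90, 120, 180 and 240 min. In culture 2 it was 0.905 at 0 min, 1.02, 0.684, 0.764 and 0.880 at 5, 10, 15 and 30 min, 1.72 and 1.65 at 50 and 60 min, and 2.49, 2.66, 2.20 and 2.48 from 90 to 240 min. Culture 1 was thus above its start from 5 min and was back at its start by 120 min, while culture 2 stayed near or below its start to 30 min and was still high at 240 min. Over both cultures the change at 60 min was 1.17 ± 0.72 (SE, adjusted p = 0.376 in limma), so it did not pass.

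The transcript of uve1, an endonuclease that nicks DNA beside ultraviolet and other lesions, was already higher at 10 min. At 0, 10, 30, 50, 60 and 240 min its signal in culture 1 was 1.22, 2.11, 2.89, 2.81, 2.28 and 1.17. In culture 2 it was 0.972, 1.39, 1.24, 1.97, 1.96 and 1.51. Both cultures were above their 0 min arrays from 5 to 60 min, and in the untreated cultures the signal of all 10 arrays lay between 0.814 and 1.10. The change at 50 min was 1.11 ± 0.35 (SE, adjusted p = 0.15 in limma). It did not pass with the culture as a block (adjusted p = 0.0922) and did with all 4 arrays at 0 min as the reference (0.0392).

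The subunits of the complex that finds lesions in the untranscribed genome, encoded by the neighbouring genes rhp7 and rhp16, stood high together at 50 and 60 min. For rhp7 the signal went from 1.44 and 1.05 at 0 min in cultures 1 and 2 to 2.53 and 2.44 at 60 min, and was 1.25 and 2.77 at 240 min. For rhp16 it went from 0.878 and 0.718 to 1.34 and 1.44, and was 0.730 and 1.57 at 240 min. For each gene both 60 min arrays lay above both 0 min arrays, but neither change passed: 1.02 ± 0.46 for rhp7 and 0.81 ± 0.43 for rhp16 (SE, adjusted p = 0.242 and 0.313 in limma). Without peroxide, untreated culture 1 also went up by 60 min, from 1.63 to 2.5 for rhp14, 2.25 to 3.49 for rhp7 and 0.635 to 0.988 for rhp16, while untreated culture 2 went from 1.08 to 1.27, 2.11 to 2.32 and 1.46 to 0.927. The differences between the changes with and without peroxide at 60 min were 0.75 ± 1.02, 0.64 ± 0.65 and 0.82 ± 0.61 (SE), and none passed. rhp7 also started lower here than in the untreated cultures, whose 0 min signals were 2.25 and 2.11, a difference of -0.83 ± 0.46 (SE) that did not pass.

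Base excision genes did not go with them. The AP endonucleases, which cut DNA where a damaged base has been removed, had values below 0 min: the change of apn2 at 60 min was -0.54 ± 0.25 (SE, adjusted p = 0.257 in limma) and that of apn1 -0.34 ± 0.37 (adjusted p = 0.638). The signal of apn2 was 0.584 and 0.493 at 0 min, 0.340 and 0.311 at 50 min and 0.416 and 0.316 at 240 min. All 4 of its later arrays thus lay below both 0 min arrays. rad2, the flap endonuclease homologous to human FEN1, had the lowest F-test p of the 37 (adjusted p = 0.363 in limma). At 0, 15, 120 and 240 min its signal was 1.75, 2.18, 0.966 and 1.76 in culture 1 and 1.92, 2.10, 1.24 and 1.05 in culture 2. Both cultures went from a slightly higher signal at 15 min to a lower one at 120 min, and only culture 1 came back.

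The other excision genes did not pass at 60 min of peroxide either. Changes of rad13 (XPG nuclease), rad15 (XPD helicase of TFIIH), rad16 (XPF nuclease), rhp26 (the CSB homologue of transcription-coupled repair), rhp41 and rhp42 (homologues of XPC) ran from 0.03 for rhp26 to 0.49 for rhp42. For rhp42 the change lay in culture 2 alone, 0.98 against 0.00 in culture 1. rhp23, whose product partners damage recognition proteins, had a change of -0.60 ± 0.33 (SE, adjusted p = 0.323 in limma).

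Of the recombination genes, rhp54 (rad54), an ATPase that remodels DNA during homologous recombination, stood above its start throughout. In culture 1 it was 0.545 at 0 min, 0.568, 0.652 and 0.723 at 5, 10 and 15 min, 0.949, 0.960 and 0.975 at 30, 50 and 60 min, and 0.829 at 240 min. At the same times culture 2 gave 0.599, then 0.617, 0.697 and 0.859, then 0.728, 1.43 and 1.31, and last 1.5. Every array after 0 min was above its own culture's start in both cultures. The change was 1.03 ± 0.41 at 50 min and 0.98 ± 0.41 at 60 min (SE, adjusted p = 0.200 and 0.220 in limma). With the culture as a block neither passed (adjusted p = 0.0741 and 0.0939), and in the fit of the peroxide arrays to 60 min alone both did (0.0318 and 0.0410).

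rad22 (rad52), whose product is a mediator of recombination that binds single-stranded DNA, peaked at 30 min from a very low signal. At 0, 5, 10, 15, 30 and 50 min culture 1 gave 0.118, 0.210, 0.0726, 0.230, 0.419 and 0.205. Culture 2 gave 0.105, 0.0898, 0.138, 0.153, 0.741 and 0.122. The 30 min array was the highest of its culture in both. The change was 2.32 with an SE of 0.61 and did not pass (adjusted p = 0.0723 in limma). With the culture as a block the same change passed (SE 0.54, adjusted p = 0.0165), the 1 gene of 37 called in that fit at 30 min, where 8.17% of all probe sets were. The 30 min array of culture 2 is the one that stood apart. Without that array the change was 1.91 (adjusted p = 0.414), and the floor of the signal is unknown at levels this low.

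rhp55 (rad55), a recombination mediator that acts with Rhp57, was also highest or next to highest at 30 min. It was at 0.387 in culture 1 and 0.707 in culture 2, from 0.15 and 0.218 at 0 min. The 30 min array of culture 2 is again the one that stood apart, and these signals are low too. Without peroxide rhp55 gave 0.32, 0.48 and 0.58 at 0, 60 and 120 min in culture 1. Untreated culture 2 gave 0.17, 0.155 and 0.11. The change of rhp55 at 30 min of peroxide was 1.53 ± 0.73 (SE, adjusted p = 0.346 in limma, and 0.0522 with the culture as a block). Its partner rhp57 (rad57) did not share this and had a change of -0.09 ± 0.31. The nuclease complex that first binds broken ends was split as well: at 60 min rad50, its ATPase, stood at 0.54 ± 0.36 and rad32 (mre11), its nuclease, at -0.40 ± 0.31, and neither passed. rad60, which acts with the Smc5-Smc6 complex, stayed between 2.80 and 4.52 on all 22 peroxide arrays.

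Of the mismatch repair genes, only msh6 stood lower in both cultures at both 50 and 60 min. msh6, a MutS homologue that recognises single mispairs, had signals of 1.71 and 1.51 at 0 min, 0.921 and 1.06 at 50 min and 1.03 and 1.0 at 60 min in cultures 1 and 2. These 4 arrays lay below both 0 min arrays. By 240 min culture 1 was back at 1.77 and culture 2 stood at 1.15. The change at 50 min was -0.71 ± 0.24 (SE, adjusted p = 0.170 in limma), and it passed in the fit of peroxide arrays to 60 min (adjusted p = 0.0418). msh3, a MutS homologue that recognises loops, had signals of 0.511 and 0.570 at 0 min, 0.730 and 1.46 at 30 min and 0.413 and 0.525 at 60 min, so its one high array was the 30 min array of culture 2 that stood apart. msh1, another MutS homologue, changed by -0.04 ± 0.25 at 60 min, with opposite signs in the cultures.

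Checkpoint genes did not move together under peroxide. rad1, a subunit of the ring-shaped clamp that is loaded at damaged DNA, had the lowest change of all 37 genes at 50 and 60 min. At 0, 30, 50, 60 and 240 min its signal was 1.84, 1.26, 1.21, 1.35 and 1.81 in culture 1 and 2.24, 1.56, 0.980, 0.983 and 1.2 in culture 2. All 6 arrays of 30 to 60 min lay below both 0 min arrays. The change at 50 min was -0.90 ± 0.35 (SE, adjusted p = 0.192 in limma), so it did not pass. rad9, which encodes another subunit of that clamp, stood at -0.02 ± 0.34 at 60 min, and rad17, which loads it, at -0.55 ± 0.27 (adjusted p = 0.286). The signal of rad17 was 0.675 and 0.604 at 0 min, 0.408 and 0.461 at 50 min and 0.486 and 0.394 at 60 min.

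The kinase gene rad3 (the ATR homologue) went opposite ways in the peroxide cultures at 60 min, 0.12 in culture 1 and -0.99 in culture 2. rad26, its partner, was above 0 min in both cultures from 5 to 60 min, with changes of 0.45 ± 0.29 at 15 min and 0.53 ± 0.29 at 30 min (SE, adjusted p = 0.999 and 0.409 in limma). rad4, a scaffold of the checkpoint and of replication start, stood at -0.01 ± 0.27 at 60 min. The products of the adaptor genes rad24 and rad25 bind phosphorylated Cdc25 and keep it from the nucleus. rad24 lay between 17.5 and 23.5 on all 22 peroxide arrays. rad25 changed by 0.38 ± 0.29 at 15 min, 0.27 ± 0.29 at 60 min and 0.40 ± 0.29 at 240 min (SE), and none passed. At these times rad25 was above 0 min in both cultures, and at 5 and 30 min it was below 0 min in culture 2.

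In the class of post-replication repair, SUMO and cohesin, rhp18 and rad21 were furthest from 0 at 50 and 60 min, in opposite directions. rhp18 encodes the homologue of budding yeast Rad18, a ubiquitin ligase that marks the PCNA clamp at stalled forks. At 0, 50, 60 and 240 min its signal was 1.32, 0.819, 0.929 and 1.96 in culture 1 and 1.88, 1.06, 0.977 and 0.985 in culture 2. All 4 arrays of 50 and 60 min lay below both 0 min arrays, and at 240 min the cultures stood on either side of their starts. The change at 50 min was -0.76 ± 0.33 (SE, adjusted p = 0.223 in limma).

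rad21, which encodes the cohesin subunit that closes the ring holding sister chromatids, stood above its start in both cultures. At 0, 50, 60 and 240 min its signal was 0.875, 1.08, 1.0 and 1.33 in culture 1 and 0.735, 1.36, 1.37 and 1.80 in culture 2. Every one of these later arrays was above both 0 min arrays, and the change was 0.55 ± 0.34 at 60 min and 0.95 ± 0.34 at 240 min (SE, adjusted p = 0.392 and 0.942 in limma). rhp6, the ubiquitin-conjugating partner of Rhp18, stood at 0.23 ± 0.23, rad8, a ubiquitin ligase and helicase that extends the same mark, at -0.01 ± 0.24, and rad31, a subunit of the SUMO-activating enzyme, at -0.46 ± 0.51 at 60 min.

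**Figure D3:**
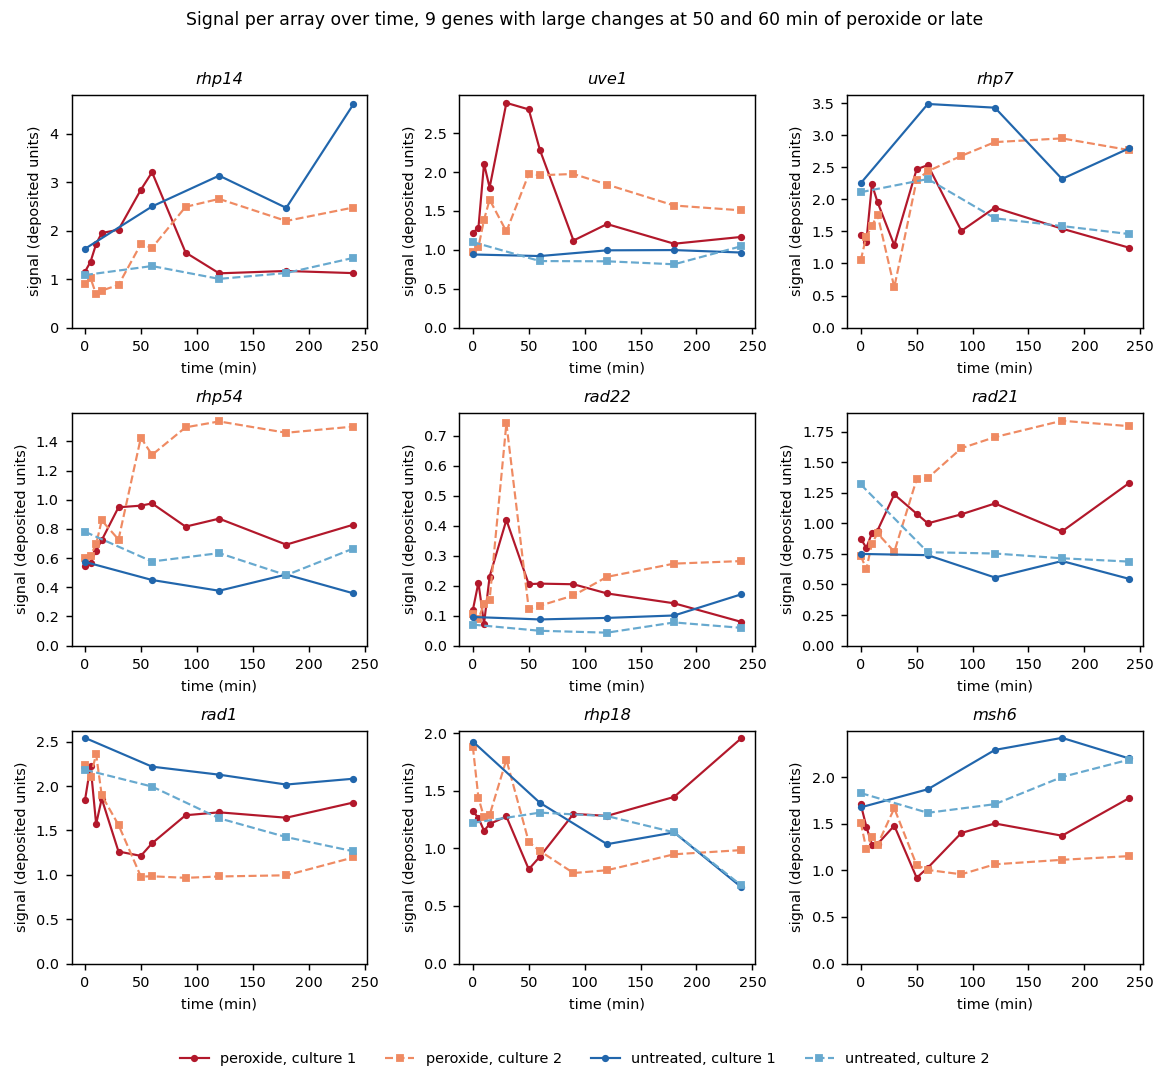
Deposited signal on each array against time in min for 9 genes, with the peroxide cultures in red and orange and the untreated cultures in blue; each point is 1 array. For rhp14, rhp7 and uve1 the signal of culture 1 is back near its start by 240 min, while culture 2 stays above its own start.

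After 60 min the peroxide cultures parted. At 60 min 10 genes in culture 1 and 14 in culture 2 lay 1.5-fold or more above or below the 0 min array of the same culture, where 34.7% and 41.7% of all probe sets were. At 240 min there were 4 in culture 1, where 10.2% of all probe sets were, and 16 in culture 2, where 46.3% were. These members parted with the arrays as a whole, and each count comes from single arrays with no test. The treatment markers had parted as well. After 240 min of peroxide ctt1 was changed by 0.19 (culture 1) against 3.59 (culture 2), and srx1 by -0.47 against 3.47. The median over the 6 peroxide response genes was -0.01 against 3.53, and 0.22 against 3.50 after 180 min. Late peroxide means thus average unlike cultures, and what this does to the repair genes was not tested. The sign of the change differed between the cultures for 9 of 37 genes at 60 min and for 26 at 240 min, against 21.6% and 54.8% of all probe sets.

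By gene, culture 1 at 240 min was at -0.03 for rhp14, -0.21 for rhp7, -0.27 for rhp16, -0.06 for uve1 and -0.02 for rad1. Culture 2 was at 1.45, 1.40, 1.13, 0.63 and -0.91 for the same genes. All 5 had thus returned in culture 1 and not in culture 2. At least 1.5-fold higher in both cultures at 240 min were rhp54, rhp55 and rad21, 3 of 37 where 2.11% of all probe sets were, and 0 genes were that much lower in both, where 0.925% were. The changes of these 3 were 0.97 ± 0.41, 0.95 ± 0.73 and 0.95 ± 0.34 (SE, adjusted p = 0.942 for each in limma).

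The calls of the test on all 32 arrays came from the untreated cultures. At 60 min 0 of 37 genes passed in limma (1 at an unadjusted p under 0.05), where 0.0402% of all probe sets did, and at 120 min 0 passed (2 at that p), where 1.13% did. Under that unadjusted p were 2.41% of all probe sets at 60 min and 9.39% at 120 min. At 180 min 2 genes had risen, rad3 and rad13, which is 5.41% of the members where 5.53% of all probe sets passed. At 240 min 6 had changed, 16.2% of the members where 9.86% of all probe sets passed: rad13, rad15, rhp41 and rad3 were higher, and rhp18 and rhp23 lower. With the culture as a block 5 genes passed at 180 min, where 12.1% of all probe sets did, and 13 at 240 min, where 19.1% did. The block added msh3, apn2 and rad4 at 180 min, and msh3, rad31, rhp57, rad4, rhp26, rhp6 and rad60 at 240 min. At least 1.5-fold higher in both untreated cultures at 240 min stood 6 genes, where 14% of all probe sets did, and 3 were that much lower, where 9.41% were.

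The checkpoint kinase gene rad3 was high from 120 min. From 0 to 240 min its signal in untreated culture 1 was 0.548, 0.715, 1.25, 1.56 and 1.56, and in culture 2 it was 0.542, 0.472, 0.923, 1.32 and 1.11. From 120 min on all 6 arrays lay above both 0 min arrays and above all 22 peroxide arrays, the highest of which was 0.782. It had risen by 1.39 ± 0.37 at 180 min and by 1.27 ± 0.37 at 240 min (SE, adjusted p = 0.0306 and 0.0351 in limma). The call at 180 min was lost without either untreated culture or any single array of 0 or 180 min. That at 240 min was lost without either untreated culture, without either 0 min array or without the 240 min array of culture 1, but it held without the 240 min array of culture 2. None of the other checkpoint genes was called: rad26 stood at -0.26 ± 0.29 and rad9 at -0.53 ± 0.34 at 240 min. rad17 was higher in both cultures, with a change of 0.59 ± 0.27 (adjusted p = 0.202), and for rad1 the change was -0.54 ± 0.35.

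rad4 was lower in both untreated cultures, with signals of 0.838 and 0.641 at 0 min and 0.535 and 0.426 at 240 min. Its change of -0.62 ± 0.27 (SE) did not pass (adjusted p = 0.167 in limma) but did with the culture as a block (adjusted p = 0.0314). The adaptor genes rad24 and rad25 went opposite ways in the cultures, -0.63 and 0.11 for rad24 and -0.77 and 0.28 for rad25.

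Of the 14 excision repair genes rad13 rose at 180 and 240 min, rad15 and rhp41 rose at 240 min and rhp23 fell. rad13, the XPG homologue that cuts on one side of a lesion, had signals of 0.506, 0.773, 1.07, 1.22 and 1.61 from 0 to 240 min in untreated culture 1 and of 0.539, 0.507, 0.705, 0.919 and 1.13 in culture 2. It had risen by 1.02 ± 0.27 at 180 min and by 1.37 ± 0.27 at 240 min (SE, adjusted p = 0.0294 and 0.00290 in limma). Both 240 min arrays lay above all 22 peroxide arrays, whose highest was 0.561. The call at 240 min was lost without untreated culture 1 (adjusted p = 0.207) or its 240 min array (0.0707). That at 180 min was lost without any 1 of the 4 cultures or of the 0 and 180 min arrays, and after quantile normalization (adjusted p = 0.0514).

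rad15, the XPD helicase of TFIIH, which opens DNA for both transcription and repair, had signals of 0.843 and 1.03 at 0 min and of 2.19 and 1.60 at 240 min. It had risen by 1.01 ± 0.31 (SE, adjusted p = 0.0417 in limma). rhp41, an XPC homologue that binds lesions first, went from 0.750 and 0.983 to 2.16 and 1.41 and had risen by 1.02 ± 0.28 (adjusted p = 0.0268). Its paralogue rhp42 stood at 0.78 ± 0.34 and did not pass (adjusted p = 0.170). For both genes that rose the change was larger in culture 1 than in culture 2: 1.38 and 0.64 for rad15, and 1.52 and 0.52 for rhp41.

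Of the genes that fell, rhp23, the partner of those damage recognition proteins, went from 8.13 and 6.58 at 0 min to 2.73 and 4.54 at 240 min. It had decreased by 1.05 (SE 0.33, adjusted p = 0.0455 in limma), by 1.57 in culture 1 and 0.54 in culture 2. rhp18, the ubiquitin ligase gene that was also low at 50 and 60 min of peroxide, went from 1.93 and 1.22 to 0.664 and 0.679 and had decreased by 1.19 (SE 0.33, adjusted p = 0.0296). Both 240 min arrays of rhp18 lay below all 22 peroxide arrays, the lowest of which was 0.786. The calls of rad15, rhp23 and rhp41 were lost without either peroxide culture, without untreated culture 1 or its 240 min array, and without either untreated 0 min array. Those of rad15 and rhp23 were also lost without untreated culture 2, after quantile normalization and after median centring. That of rhp18 was lost when either untreated culture, the 0 min array of culture 1 or either 240 min array was left out. With the untreated arrays of 0 and 240 min alone rad15, rhp41, rhp18 and rhp23 lost their calls (adjusted p = 0.104, 0.104, 0.0521 and 0.0943).

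The excision genes that stood high at 60 min of peroxide were not called in the untreated cultures at any time. At 240 min uve1 stood at -0.02 ± 0.35 and rhp7 at -0.11 ± 0.46, while rhp14 stood at 0.96 ± 0.72 and rhp16 at 0.75 ± 0.43 (SE). For rhp14 the untreated change was 1.5 in culture 1, with signals of 1.63 at 0 min and 4.61 at 240 min, and 0.41 in culture 2, with 1.08 and 1.44. The signal in untreated culture 1 at 240 min was above every peroxide array, the highest of which was 3.21.

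Other excision genes were lower in both untreated cultures at 240 min without passing. rhp26, the gene of transcription-coupled repair, stood at -0.69 ± 0.24 (SE, adjusted p = 0.0736 in limma, and 0.0377 with the culture as a block), rad16 at -0.55 ± 0.30 and rad2 at -0.54 ± 0.29. The nuclease gene rad16 thus did not go with rad13, which encodes the nuclease that cuts on the other side of a lesion. apn2 was -0.73 ± 0.25 at 180 min (adjusted p = 0.112, and 0.0282 with the block) and -0.40 ± 0.25 at 240 min.

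Outside excision repair and the checkpoint, msh3 had the largest change of the 37 at 240 min. From 0 to 240 min its signal was 0.916, 1.48, 2.73, 2.86 and 4.03 in untreated culture 1, against 0.759, 0.662, 0.749, 1.36 and 1.22 in culture 2. Both cultures were higher at 180 and 240 min, culture 1 much more so. The change was 1.41 ± 0.57 (SE), which did not pass (adjusted p = 0.142 in limma) but did with the culture as a block (adjusted p = 0.0130). msh6 stood at 0.33 ± 0.24 and msh1 at -0.40 ± 0.25, its signal going from 1.51 and 1.46 to 0.960 and 1.31.

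Among recombination genes the mediator gene rhp57 went from 2.20 and 1.81 at 0 min to 4.70 and 2.81 at 240 min, a change of 0.87 ± 0.31 (SE, adjusted p = 0.0895 in limma, and 0.0163 with the culture as a block). rad60 went from 4.05 and 3.23 to 4.75 and 5.88, a change of 0.55 ± 0.24 (adjusted p = 0.172, and 0.0497 with the block). In both cases the 240 min arrays lay above both 0 min arrays. rad50 stood at 0.48 ± 0.36, rad32 at 0.16 ± 0.31, rad22 at 0.30 ± 0.61 and rhp54 at -0.45 ± 0.41. rhp55 went opposite ways in the cultures, 0.47 and -0.74.

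rad31 of the SUMO pathway went from 3.07 and 2.31 at 0 min to 1.60 and 1.24 at 180 min and 1.42 and 1.02 at 240 min. Its change of -1.15 ± 0.51 (SE) at 240 min missed the threshold (adjusted p = 0.186 in limma) and passed with the culture as a block (adjusted p = 0.0145). rhp6, with signals of 7.01 and 6.14 at 0 min and 4.21 and 4.93 at 240 min, stood at -0.53 ± 0.23 (adjusted p = 0.182, and 0.0474 with the block). In both genes the 240 min arrays lay below both 0 min arrays. By class the medians at 240 min were 0.21 for excision repair, 0.30 for recombination, 0.33 for mismatch repair, -0.26 for the checkpoint and -0.70 for post-replication repair, SUMO and cohesin, against -0.03 for all probe sets. The recombination median was 0.47 in culture 1 and -0.14 in culture 2. In the class of post-replication repair, SUMO and cohesin, rad8 was the 1 gene of 5 above 0.

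**Figure D4:**
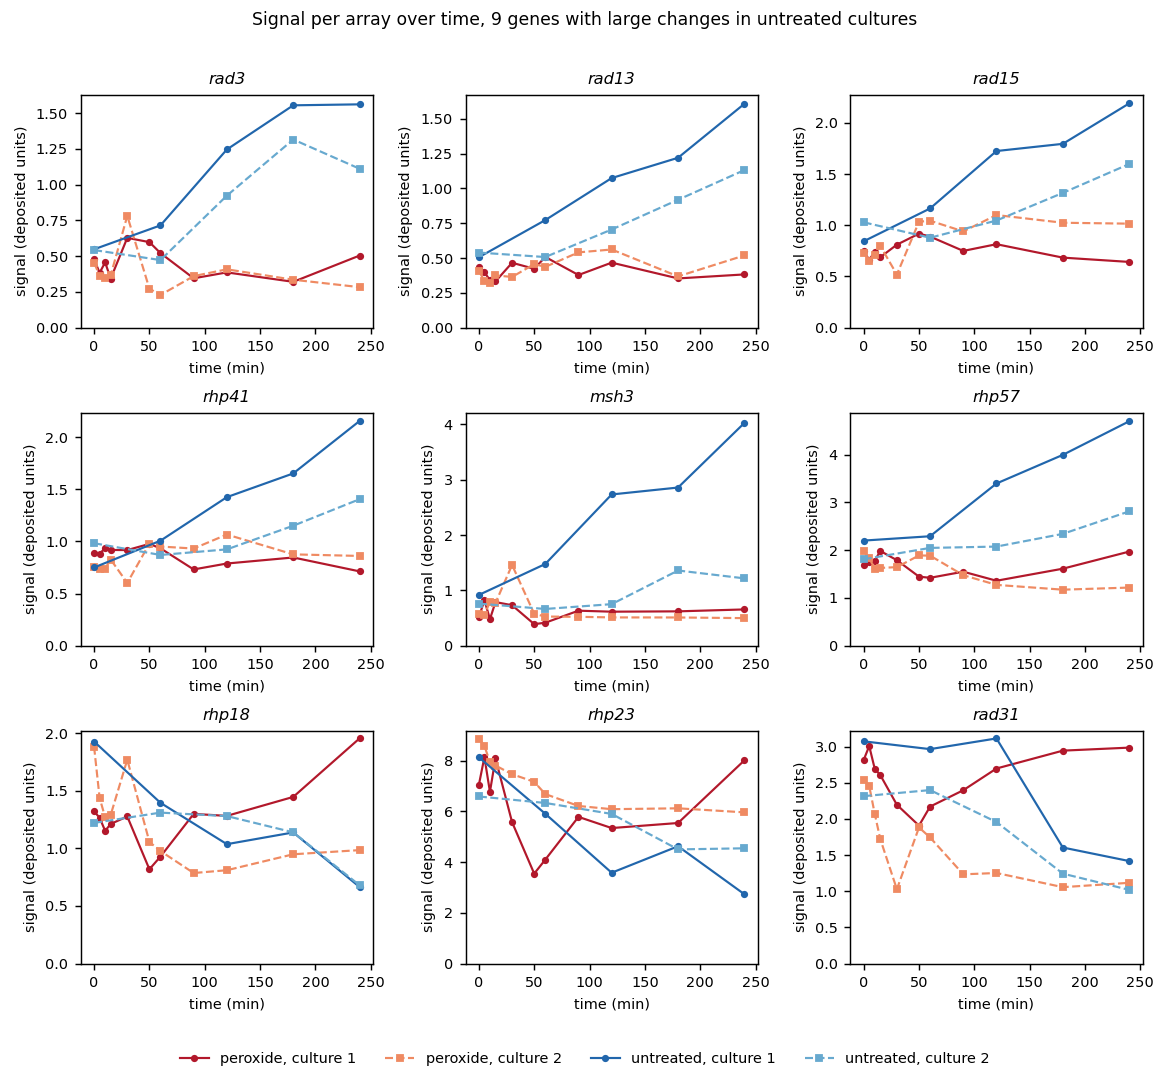
Deposited signal on each array against time in min for 9 genes, with the peroxide cultures in red and orange and the untreated cultures in blue; each point is 1 array. Both untreated cultures are above all peroxide arrays for rad3 and rad13 at 240 min, and untreated culture 1 reaches 4.03 for msh3.

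Other transcripts also moved in the untreated cultures. At 180 min 4 of 13 measured genes of mating and meiosis had risen (mam2, mfm3, mei4 and ste11). At 240 min 4 had risen (mam2, mfm3, map2 and mei4). Of all probe sets 5.53% and 9.86% passed at these times. At 120 min 1 had risen (mei4), where 1.13% passed. At 30 min of peroxide mei4 was higher and mfm2 and mei2 were lower, where 1.07% of all probe sets passed. The summed signal of the 13 in the untreated cultures was 7.17 to 15.9 at 0 min and 18.2 to 23.0 at 60 min. It was 20.5 to 42.9 at 120 min, 16.8 to 21.7 at 180 min and 11.6 to 18.8 at 240 min. In the peroxide cultures it was 5.05 to 6.06 at 0 min and 3.25 to 4.56 at 240 min. None of the 13 was at 0 on any array. Of 18 measured genes driven by the MBF factor at the start of DNA replication, 2 had decreased at 240 min untreated and 1 had risen. The 2 were cdc22, a ribonucleotide reductase gene, and nrm1, a corepressor gene, and mcm5 was the 1 that rose. Of all probe sets 9.86% passed there, and the median change was -0.57 for the 18 against -0.03 for all probe sets. The part of mating, meiosis or the cell cycle in the changes of the repair genes was not tested.

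The difference of changes asks whether a gene moved differently under peroxide and without it. For none of the 37 genes did limma call it: 0 passed at 60 min (2 at an unadjusted p under 0.05), where 0.0402% of all probe sets did, 0 at 120 min (3), where 0.261% did, 0 at 180 min (5), where 1.45% did, and 0 at 240 min (8), where 1.49% did. At the unadjusted p 6.62%, 8.47%, 10.2% and 11.9% of all probe sets were under 0.05 at 60, 120, 180 and 240 min. The lowest adjusted p of the 37 was that of rad3 at 180 min. Its change was lower under peroxide (difference -1.90 ± 0.53, SE, adjusted p = 0.0845), and at 240 min the difference was -1.58 ± 0.53 (adjusted p = 0.159).

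With the culture as a block the differences of rad3 and rad13 passed at 180 min, 2 of 37 where 4.61% of all probe sets did. At 240 min 4 passed, where 6.3% of all probe sets did: rad3 and rad13 below the untreated change, and rad21 and rhp54 above it. For rad13 the difference was -1.25 ± 0.38 at 180 min and -1.29 ± 0.38 at 240 min (adjusted p = 0.138 and 0.0988 in limma, and 0.0249 and 0.0184 with the block). For rad21 it was 1.65 ± 0.49 at 240 min (adjusted p = 0.101, and 0.0347 with the block). For rhp54 it was 1.42 ± 0.58 (adjusted p = 0.305, and 0.0496 with the block).

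The sides of these differences came from different series. Their peroxide side is a mean over both peroxide cultures, which had parted by 180 min in the peroxide response genes. The change of rad3 and rad13 at 240 min of peroxide was -0.30 ± 0.37 and 0.08 ± 0.27, so the untreated cultures carried the distance. For rad21 the peroxide cultures stood at 0.95 and the untreated ones at -0.70, with untreated signals of 0.750 and 1.32 at 0 min and 0.546 and 0.687 at 240 min. For rhp54 the changes were 0.97 under peroxide and -0.45 without it, and its 240 min signals of 0.829 and 1.5 lay above the untreated ones of 0.358 and 0.666.

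**Figure D5:**
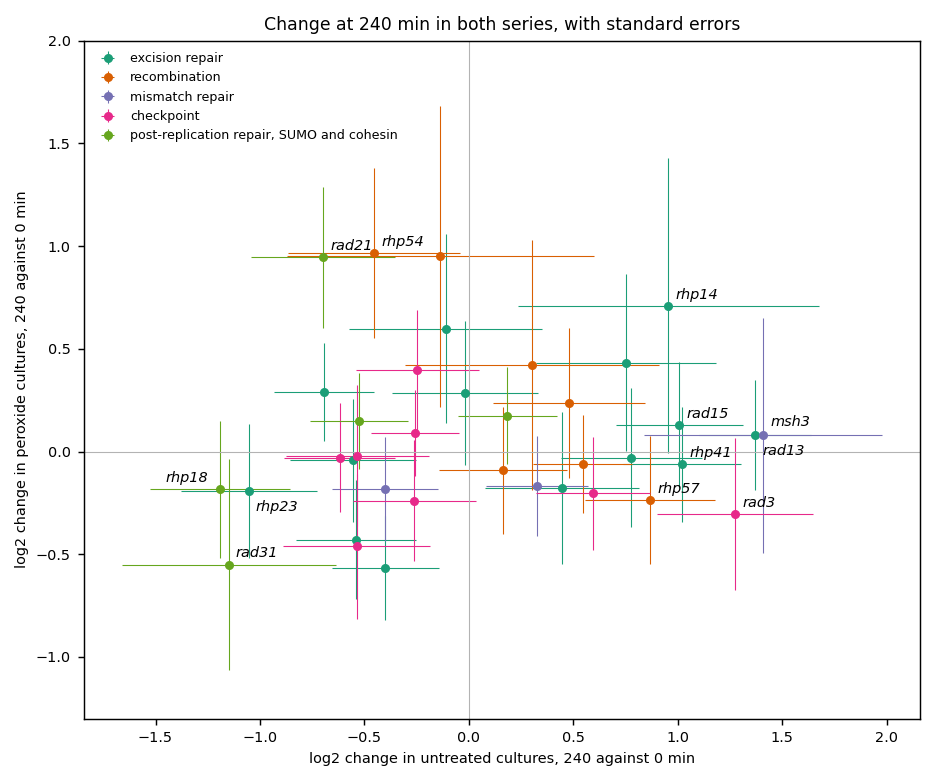
Each point is 1 of the 37 genes, coloured by class, with its log2 change from 0 to 240 min in the untreated cultures on the horizontal axis and in the peroxide cultures on the vertical axis; bars are standard errors. rad3 and rad13 lie far right near 0 on the vertical axis, and rad21 and rhp54 lie at upper left.

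Before peroxide the series did not differ detectably in these genes: 0 of 37 passed between the 0 min groups in limma, with 0 at an unadjusted p under 0.05, and 0% of all probe sets passed. The median difference of the 37 (peroxide minus untreated) was -0.15 beside -0.10 for all probe sets. Centring each array on its median moved the median of all probe sets to 0.03 and that of the 37 genes to -0.02, and moved no other comparison's median by more than 0.1.

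A further list of 84 measured genes of repair and checkpoint pathways with other names gave 0 calls in limma at the 10 peroxide times and in the differences. With the culture as a block 1 was higher and 3 lower at 30 min of peroxide, where 8.17% of all probe sets passed. In the differences 3 and 4 were lower at 180 and 240 min, where 4.61% and 6.3% passed. The median of the list was -0.28 and -0.25 at 50 and 60 min of peroxide. In the untreated cultures pms1, a MutL homologue of mismatch repair, had risen by 1.06 ± 0.28 at 180 min (SE, adjusted p = 0.0311 in limma) and by 1.55 ± 0.28 at 240 min (adjusted p = 0.00185). At 240 min thp1, a DNA glycosylase gene, had risen by 1.80 ± 0.50 and rqh1, the RecQ helicase gene, by 0.73 ± 0.21. swi1, which encodes a fork protection protein, had decreased by 0.94 (SE 0.29) and rfc4, a clamp loader subunit gene, by 1.32 (SE 0.39). Thus 3 of 84 rose and 2 fell at 240 min, where 9.86% of all probe sets passed, with a median of -0.03 over the list. With the block 7 were higher and 8 lower at 240 min, where 19.1% of all probe sets passed. At 180 min 6 were higher and 4 lower, where 12.1% passed, and at 120 min 2 were higher and 1 lower. The share of all probe sets with the block at 120 min is not given here.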

How the data were processed

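The values are the signal per probe set that the authors deposited in the value table of the series, for 32 single-colour arrays of biotin-labelled total RNA (GeneChip 3' IVT Express labelling, per the labels' protocols). Background correction, summarisation, scaling, software and build are not given in the sources used here. Detection calls were not used. With 2 arrays a group, their number sets the precision.

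Symbols came from the platform annotation (1 symbol for 2903 of 4972 probe sets, several for 16, none here for 2053). All 37 members matched RefSeq (assembly ASM294v3) by gene ID, which gave 5 a newer symbol. Other genes of these families are not analysed here. The members, classes and lists were chosen with earlier results of these data known. Named in full are called members and, per class, the 2 furthest from 0 at 50 and 60 min of peroxide and at 240 min untreated; rhp16, rhp7, rad2, rhp55 and others were described after their values were seen.

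Signals were log2-transformed with no pseudocount and fitted with limma 3.58.1 in R 4.3.3, 1 mean for each of 16 groups over all 32 arrays (16 residual and 3.23 prior degrees of freedom). Benjamini-Hochberg adjustment ran over 4972 probe sets within each of 19 comparisons. Groups, times and culture numbers came from the sample titles. Each number was taken to mark 1 culture followed through time, so numbers pair arrays within a series and only there. The titles do not state this, and the single-culture changes and the block rest on it. The difference between the cultures correlated over pairs of times with a median r of 0.707 in the untreated series (10 of 10 pairs above 0.1). In the peroxide series the median r was 0.259 (34 of 55). The lowest r was 0.362 untreated and -0.369 under peroxide, so the pairing is less clear in the peroxide series. The test was tried on simulated data. Alternatives were the culture as a fixed block (random, correlation 0.310, between the series at 0 min), the compared arrays alone, the peroxide arrays to 60 min, all 4 arrays at 0 min as reference, quantile normalization, median centring, a pseudocount of 0.1, leaving out the 25% of probe sets with the lowest signal, and leaving out each culture or array.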

Additional observations from a re-analysis of the deposited data

How the results depend on the processing

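With the culture as a replicate block the members called were 1 at 30 min of peroxide, 5 at 180 min and 13 at 240 min untreated, and 2 and 4 in the differences of changes at 180 and 240 min, in place of 0, 2, 6, 0 and 0. The block changed no other count of the 37 members. The peroxide arrays to 60 min alone gave 1, 2 and 1 at 30, 50 and 60 min, all 4 arrays at 0 min as reference gave 1 and 2 at 30 and 50 min, and a pseudocount of 0.1 gave 1 at 30 min, each in place of 0. The compared arrays alone gave 4 at 180 min and 3 at 240 min untreated. Leaving out the dimmest 25% of probe sets gave 0 at 180 min untreated. rad3 and rad13 are among those probe sets, so in that fit they were not tested at any time, 240 min included. Quantile normalization gave 1 in the difference at 180 min, that of rad3 (adjusted p = 0.0320 in limma). Shares of all probe sets that passed are not given here for the pseudocount, compared-array, dimmest 25% and quantile fits.

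Leaving out 1 culture or array gave 0 to 1 at 30 min (1 without the 30 min array of peroxide culture 1, rad22, adjusted p = 0.0399, which rests on the 30 min array of culture 2 that stood apart) and 0 to 1 at 50 min of peroxide (1 without peroxide culture 2, uve1, adjusted p = 0.0464). It gave 0 to 2 at 180 min untreated, with 1 without either peroxide culture and 0 without either untreated culture or any untreated array of 0 or 180 min. At 240 min untreated it gave 0 to 8: 0 without untreated culture 1 or its 240 min array, 1 or 2 when the 0 min array of culture 1 or 2 was left out, 3 without untreated culture 2 and 8 without its 240 min array. The share of all probe sets that passed in these fits is not given here, so the counts have no background beside them. An array left alone in its group is assumed to vary like the other groups. The member changes that passed in any fit of both cultures kept their sign under these alternatives, and those that passed in none were not followed. The precision is that of 2 arrays per group, and 16 members are among the dimmest 25% of probe sets.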
